A study of Mus musculus with 11 samples.

Results

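Glutathione peroxidases and peroxiredoxins are among the enzymes that remove hydrogen peroxide and lipid hydroperoxides in animal cells. The 10 genes described here, Gpx1, Gpx3, Gpx4, Gpx8 and Prdx1 to Prdx6, were taken by symbol from the 14700 genes of the deposited table, and all 10 had a row and were tested. RNA was sequenced from lungs of C57BL/6 mice aged 8 weeks, collected at day 3 after 50 µL was instilled into the trachea. The 5 bleomycin libraries came from mice given 3 U/kg of bleomycin, a DNA-damaging glycopeptide that injures the lung, and the 6 saline libraries came from mice given the vehicle alone. The sex of the mice, and whether each library is a separate animal, are not given in the labels. The p-values below therefore speak only of the spread among these libraries, which may be technical.

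Glutathione peroxidases spend glutathione to reduce peroxides, and several of them, including Gpx1, Gpx3 and Gpx4, carry selenocysteine at the catalytic site. Peroxiredoxins use a cysteine that is oxidised by the peroxide and is then reduced again, for most members by thioredoxin. In the lung these enzymes act in the airway and alveolar epithelium, in macrophages and in the lining fluid, and bleomycin is known to generate reactive oxygen species when it binds iron and oxygen.

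Total counts were 13226339 to 17010616 in the bleomycin libraries and 13739589 to 19009284 in the saline libraries. The least counted value of any of the 10 genes was 311 reads and the highest 38308 reads, so counting error was small beside the spread between libraries. The defining lung genes Sftpc, Scgb1a1, Ager, Cldn5 and Col1a2 were present in every library, the lowest level being 55.4 CPM (counts scaled to library size, after TMM correction for library composition). The saline libraries did not form 1 group. Saline 2 and 3 were close to each other, with a Spearman's rho of 0.986 across genes, and saline 1 and 4 were too, with a rho of 0.99, while the 4 cross pairs of these libraries lay between 0.848 and 0.877. Saline 6 lay near the bleomycin libraries, with a rho of 0.945 to 0.972 to them and 0.908 to 0.953 to the other saline libraries. Leaving out saline 6 raised the number of genes called by the test described below from 1496 to 2118. Summed over 10 genes, markers of recruited monocytes and macrophages came to 4005 and 2754 CPM in saline 2 and 3, while the remaining saline lungs held 499.7 to 923.8 CPM, and 8 club cell markers summed to 175000 and 186400 CPM in saline 1 and 4, against 30090 to 97310 CPM in the others. Results that rest on these libraries are therefore given without them. In bulk tissue, fewer cells of a type and less RNA per cell cannot be told apart.

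Of the 10 genes, Gpx3 rose 2.67-fold and Prdx1 fell 2.56-fold after bleomycin, while the other 8 did not pass the test. Gpx3 encodes the secreted glutathione peroxidase of plasma and extracellular fluid, and Prdx1 encodes the abundant cytosolic peroxiredoxin. The test was edgeR's quasi-likelihood test on the counts of all 14478 genes that passed the filter on low counts, with Benjamini-Hochberg adjustment over all of them and a threshold of 0.05. It called 10.3% of all genes, 4.63% higher and 5.7% lower in bleomycin lungs, so that 1 gene of 10 in each direction is not far from that background. The groups did not overlap in CPM for Gpx3 and Prdx1, a separation that 8.41% of all genes showed, 3.99% with bleomycin above and 4.41% with bleomycin below. A call together with a change of at least 2.5-fold, which both genes had, was found for 3.63% of all genes. That bound lies just under the changes of these 2 genes, so this share is not a background to set them against. The median log2 fold change was -0.39 over the 10 genes and -0.04 over all genes, and 8 of the 10 had a negative log2 fold change, against 7 with scaling to total counts and 4 on TPM. Those scalings moved the median of all genes by 0.18 and 0.43. Of all genes called, 44.9% were higher in bleomycin lungs, against 70.2% with scaling to total counts and 92.6% by limma on TPM (FPKM rescaled to a common sum), so the balance of rises and falls depends on the scaling.

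**Figure D1:**
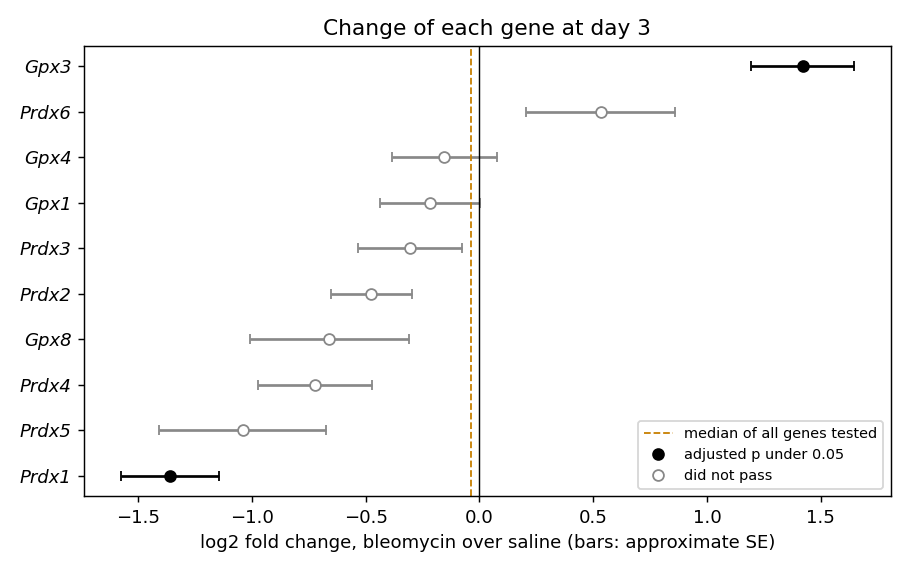
Log2 fold change of bleomycin over saline (horizontal axis) for each of the 10 genes (rows), from edgeR. Bars show the approximate standard error, filled points passed an adjusted p of 0.05, and the dashed line is the median of all genes tested, -0.04. Gpx3 at 1.42 and Prdx1 at -1.36 are the 2 filled points, at opposite ends.

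Gpx3 (ENSMUSG00000018339) held 1674, 2322, 1680, 2111 and 1662 CPM in bleomycin 1 to 5, against 521.6, 699.8, 562.4, 578.7, 1018 and 862.8 CPM in saline 1 to 6. Every bleomycin library lay above every saline library. The means were 1890.0 ± 308 CPM in bleomycin lungs (SD, n = 5) and 707 ± 196 CPM in saline lungs (SD, n = 6). The log2 fold change was 1.42 ± 0.23 (approximate SE), a 2.67-fold rise, with an adjusted p of 0.00519 by edgeR. The call held in all 24 alternatives tried, with log2 fold changes from 1.18 with a correction for GC content to 1.95 on TPM, where the median of all genes was itself at 0.39. It came to 1.34 when saline 2 and 3 were left out and to 1.29 when saline 1 and 4 were.

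Prdx1 (ENSMUSG00000028691) held 381.8, 395.2, 403.4, 383.8 and 372.6 CPM in bleomycin 1 to 5, against 959.4, 1314, 961.6, 1132, 1058 and 531.3 CPM in saline 1 to 6. Every bleomycin library lay below every saline library, and saline 6 was the closest to them. The means were 387 ± 12.1 CPM in bleomycin lungs (SD, n = 5) and 993 ± 261 CPM in saline lungs (SD, n = 6). The log2 fold change was -1.36 ± 0.22 (SE), a level 2.56-fold lower in bleomycin lungs, with an adjusted p of 0.00512 by edgeR. The coefficient of variation was 3.11% in bleomycin lungs, the lowest of any of the 10 genes in either group, and 26.3% in saline lungs. It came to -1.25 when saline 2 and 3 were left out and to -1.29 when saline 1 and 4 were, both past the threshold. The call was lost in 1 of 24 alternatives, limma on TPM, with a log2 fold change of -0.79 (adjusted p = 0.135), or -1.18 relative to the median of all genes in that fit.

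**Figure D2:**
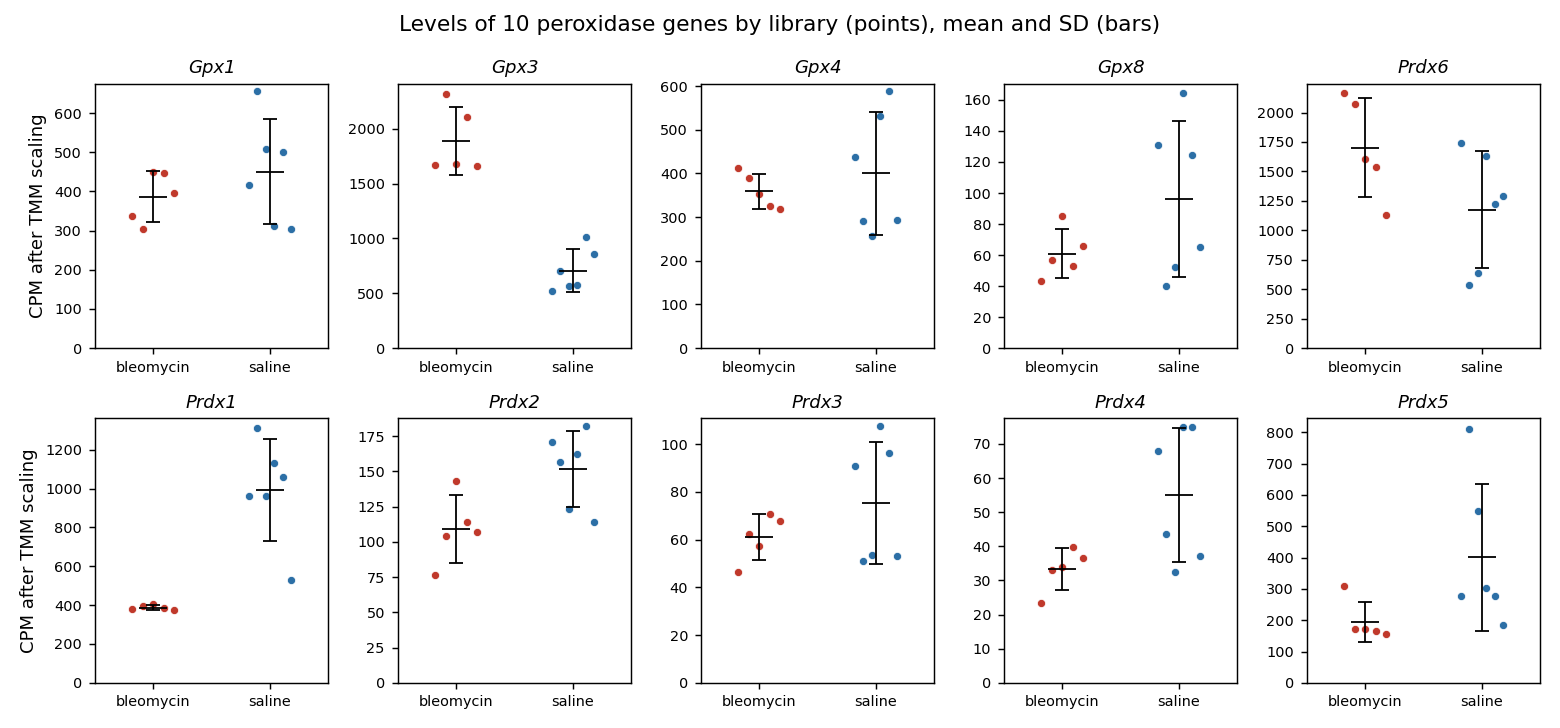
CPM after TMM scaling (vertical axes, each from 0) of the 10 genes in 5 bleomycin and 6 saline libraries. Points are libraries, and bars are the mean and SD of a group. The groups are apart for Gpx3, at 1662 to 2322 CPM in bleomycin against 521.6 to 1018 CPM in saline lungs, and for Prdx1, at 372.6 to 403.4 CPM in bleomycin against 531.3 to 1314 CPM in saline lungs.

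The sequences in front of these genes are shown because Gpx3 and Prdx1 are the members that passed the test, in opposite directions. Each is the plus-strand 250 bases that end just before the gene's start in RefSeq on GRCm38.p6, an older build than the GRCm39 named in the submitters' processing notes. Gpx3 lies at chr11:54902604-54902853 and Prdx1 at chr4:116685349-116685598 in that build.
Gpx3: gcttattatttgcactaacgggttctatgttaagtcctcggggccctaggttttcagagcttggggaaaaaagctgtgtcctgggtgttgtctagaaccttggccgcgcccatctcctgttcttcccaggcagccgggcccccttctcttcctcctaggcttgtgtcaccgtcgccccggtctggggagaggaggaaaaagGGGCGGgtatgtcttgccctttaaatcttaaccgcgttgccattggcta
Prdx1: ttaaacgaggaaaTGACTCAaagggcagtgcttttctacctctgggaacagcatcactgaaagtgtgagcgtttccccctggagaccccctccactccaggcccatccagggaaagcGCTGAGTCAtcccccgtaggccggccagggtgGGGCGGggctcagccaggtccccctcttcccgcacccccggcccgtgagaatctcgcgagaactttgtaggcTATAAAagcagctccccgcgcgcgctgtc
The capitals mark matches on either strand to 4 motifs, the core of the antioxidant response element (TGACNNNGC), the AP-1 site (TGANTCA), the GC box (GGGCGG) and the TATA box (TATAAA). The Prdx1 window held all 4. Its antioxidant response element match, read on the minus strand, begins 133 bases before the start and shares its bases with the second of 2 AP-1 matches, which begins 131 bases before the start. The other AP-1 match begins 237 and the TATA box 29 bases before the start, with the GC box between the second AP-1 match and the TATA box. The Gpx3 window held a GC box, 49 bases before the start, and no match to the other 3 motifs. Of 32851 windows of the same length in the table, 10.2% held the antioxidant response element core, 6.75% the AP-1 site, 32.7% the GC box and 12.4% the TATA box. Of the 12 windows of the 9 members with an entry, 1 held the antioxidant response element core and 1 the AP-1 site, both that of Prdx1, while 8 held a GC box and 2 a TATA box. A match describes these letters and says nothing of what binds there.

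The intracellular glutathione peroxidases had overlapping groups. Gpx1, the ubiquitous cytosolic and mitochondrial form, held 337.2, 304.1, 448.6, 448.0 and 397.1 CPM in bleomycin 1 to 5, against 305.0 to 657.8 CPM in saline lungs with a median of 458.2. Its 2 highest saline values were in saline 2 and 3, and its log2 fold change of -0.22 ± 0.22 did not pass (adjusted p = 0.528 by edgeR) and turned positive on TPM and without those 2 libraries. Leaving out saline 2 alone gave -0.08. Gpx4, which reduces phospholipid hydroperoxides in membranes and restrains ferroptosis, held 411.6, 389.0, 353.1, 325.6 and 318.5 CPM in bleomycin 1 to 5, against 256.4 to 589.0 CPM in saline lungs with a median of 365.8. Its log2 fold change of -0.15 ± 0.23 (adjusted p = 0.682) turned positive in 5 alternatives and was -0.37 without saline 2 and 3, and the 5 bleomycin values lay inside the saline range. Gpx8, a membrane protein of the endoplasmic reticulum with cysteine at the catalytic site, held 43.2, 57.05, 85.31, 52.91 and 65.99 CPM in bleomycin 1 to 5, against 39.93 to 164.3 CPM in saline lungs with a median of 94.74. The log2 fold change of Gpx8 was -0.66 ± 0.35 (adjusted p = 0.224 by edgeR). Saline 2 and 3, at 39.93 and 52.49 CPM, were its lowest saline libraries. Without them Gpx8 passed the threshold at a log2 fold change of -0.99 (adjusted p = 0.0264), while leaving out saline 1 and 4 gave -0.18 (adjusted p = 0.756).

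The peroxiredoxin genes Prdx2, Prdx3 and Prdx4 were lower on average after bleomycin but did not pass, and Prdx2 and Prdx3 turned positive on TPM. Prdx2, a cytosolic form that is abundant in red blood cells, held 76.52, 104.3, 143.6, 114.3 and 107.1 CPM in bleomycin 1 to 5, against 114.4 to 182.4 CPM in saline lungs with a median of 159.7. Bleomycin 3 lay inside the saline range and the other 4 lay below it, bleomycin 4 only just. Its log2 fold change was -0.48 ± 0.18 (adjusted p = 0.104 by edgeR). Erythroid markers, the globins among them, summed to 1934 to 20260 CPM in bleomycin and 877.6 to 6419 CPM in saline lungs, with a median log2 fold change of 1.58. By edgeR 0 of the 9 passed, with 4 at an unadjusted p under 0.05, and DESeq2 called 1. Without saline 5, edgeR called 3 of them higher in bleomycin lungs. Their part in the Prdx2 values was not tested. Prdx3, the mitochondrial form, held 46.44 to 70.7 CPM in bleomycin lungs and 50.92 to 107.7 CPM in saline lungs (log2 fold change -0.31 ± 0.23, adjusted p = 0.383). Leaving out saline 2 and 3 gave -0.51 (adjusted p = 0.0933), leaving out saline 1 and 4 gave -0.03 (adjusted p = 0.956), and leaving out saline 4 alone gave -0.18 (adjusted p = 0.637). Prdx4, the form of the endoplasmic reticulum, held 23.45, 33.16, 33.79, 39.88 and 36.58 CPM in bleomycin 1 to 5, against 32.37 to 74.89 CPM in saline lungs with a median of 55.73. For Prdx4 the log2 fold change, -0.72 ± 0.25, missed the threshold (adjusted p = 0.0816 by edgeR). It passed by DESeq2 (adjusted p = 0.0424) and when saline 3 (-0.84, adjusted p = 0.0455), saline 6 (-0.82, adjusted p = 0.0483) or the pair saline 2 and 3 (-0.93, adjusted p = 0.0194) was left out. Leaving out saline 1 and 4 gave -0.46 (adjusted p = 0.288), and on TPM it was -0.15 (adjusted p = 0.704).

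The values of Prdx5 and Prdx6 depended on saline 2 and 3. Prdx5, found in mitochondria, peroxisomes and cytosol, held 310.1, 171.8, 171.6, 164.3 and 155.5 CPM in bleomycin 1 to 5. In saline lungs it held 810.1 and 549.7 CPM in saline 2 and 3 and 185.5 to 302.3 CPM in the other 4. Bleomycin 1 lay above all 4 of these, and the other bleomycin libraries lay below every saline library. Its log2 fold change of -1.04 ± 0.37 did not pass (adjusted p = 0.0868 by edgeR) and shrank to -0.42 (adjusted p = 0.205) when saline 2 and 3 were left out. It passed without saline 6 (-1.19, adjusted p = 0.0417), with a GC correction (-1.26, adjusted p = 0.0466) and by DESeq2 (adjusted p = 0.0303). Leaving out saline 2 gave -0.71 (adjusted p = 0.132).

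Prdx6 is the peroxiredoxin that uses glutathione and that also has phospholipase A2 activity, with which it takes part in the turnover of surfactant phospholipid. It held 2164, 2072, 1602, 1539 and 1130 CPM in bleomycin 1 to 5, against 1744, 536.1, 634.0, 1628, 1220 and 1295 CPM in saline 1 to 6. The groups overlapped, and saline 2 and 3 were the lowest of all 11 libraries. The log2 fold change was 0.53 ± 0.33 (adjusted p = 0.288 by edgeR). Leaving out saline 2 and 3 gave 0.21 (adjusted p = 0.547), and leaving out saline 1 and 4 gave 0.91 (adjusted p = 0.125). On TPM it passed at 1.13 (adjusted p = 0.0136), or 0.74 relative to the median of all genes in that fit. Markers of alveolar type 2 cells summed to 22770 to 33580 CPM in bleomycin and 11720 to 44550 CPM in saline lungs, with 2 of 10 higher after bleomycin (Sftpb and Abca3). Club cell markers summed to 22930 to 79960 CPM in bleomycin and 30090 to 186400 CPM in saline lungs, with 1 of 8 lower. Of these 8, 0 were lower without saline 1 and 4, 3 without saline 2 and 3, and 0 to 1 with single libraries left out. The part of these cells in the Prdx6 values was not tested.

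The saline libraries that stood apart did so in different directions for different members. In saline lungs the 2 highest values of Gpx1 and Prdx5 were in saline 2 and 3, which also held the 2 lowest values of Gpx4, Gpx8 and Prdx6. For 9 of the 10 genes the coefficient of variation was lower among bleomycin than among saline libraries. The exception was Prdx2, at 22.0% in bleomycin and 17.8% in saline lungs. How many of all genes varied less among bleomycin libraries was not worked out. The lower spread therefore cannot be called particular to these 10 genes. The widest spread was that of Prdx5, at 33.3% in bleomycin and 58.7% in saline lungs.

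The levels of different genes can be compared only per length, and the deposited FPKM values (fragments scaled to gene length and library size) carry a feature that matters here. The length that the count and FPKM of a gene imply was within 5% of the summed length of all its annotated transcripts for 97.1% of 14677 genes. For Prdx6 it was about 11400 bases, the sum over 9 transcripts, whereas the longest transcript has 2558 bases. For Prdx3, with 1 transcript, it was 1481 bases. Genes with many annotated transcripts are therefore listed lower in FPKM than their reads per transcript length would put them. Fold changes from counts are not touched by this. TPM divides each FPKM by the library's sum of FPKM, which these lengths enter, so fold changes on TPM can be.

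By mean FPKM, Gpx3 led in both groups, at 649 ± 130 FPKM in bleomycin lungs (SD, n = 5) and 216 ± 65.1 FPKM in saline lungs (SD, n = 6). In bleomycin lungs the order after Gpx3 was Prdx6, Gpx1, Gpx4, Prdx1, Prdx3, Prdx5, Gpx8, Prdx2 and Prdx4. In saline lungs it was Prdx1, Gpx1, Prdx6, Gpx4, Prdx5, Gpx8, Prdx3, Prdx4 and Prdx2. Prdx1 was thus the second of the 10 in saline lungs, at 166 ± 44.3 FPKM, and the fifth in bleomycin lungs, at 73.3 ± 4.96 FPKM. In bleomycin lungs the step from Gpx3 to Prdx6 exceeded the sum of the SDs of both, and so did the steps from Gpx1 to Gpx4, from Prdx1 to Prdx3 and from Gpx8 to Prdx2. In saline lungs only the step from Prdx3 to Prdx4 did, and Gpx3 lay above Prdx1 in 3 of 6 libraries. Per kilobase of the longest transcript, Gpx3 remained at the top in bleomycin lungs at 1186 ± 193 CPM per kilobase, followed by Prdx6 at 665 ± 165. In saline lungs Prdx6, Gpx3, Prdx1, Gpx1 and Gpx4 lay between 459.8 and 402.1 CPM per kilobase in that order, with no step beyond the SDs. All 10 genes were among the more abundant in lung: the mean FPKM of Prdx2, the lowest, was above that of 87.2% of genes tested, and that of Gpx3 above 99.8%.

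The make-up of the 10 genes shifted with the changes of Gpx3 and Prdx1. Gpx3 took 48.2% to 57.4% of their summed FPKM in bleomycin lungs and 17.9% to 36.0% in saline lungs, while Prdx1 took 5.40% to 6.49% in bleomycin and 12.3% to 23.1% in saline lungs. These are shares of 1 sum, so a higher share of 1 gene lowers the others. By the longest transcript in place of the authors' length, Gpx3 took 33.8% to 42.8% in bleomycin and 11.8% to 25.0% in saline lungs. The ratio of Gpx3 to Prdx1 in CPM was 4.16 to 5.88 in bleomycin and 0.511 to 1.62 in saline libraries. As a share of all counts, the 10 genes came to 0.487% (bleomycin 5, 95% Wilson interval 0.484 to 0.491) to 0.651% (bleomycin 2, 0.647 to 0.655) in bleomycin lungs. In saline lungs they came to 0.388% (saline 3, 0.385 to 0.391) to 0.469% (saline 2, 0.466 to 0.473). The intervals cover counting error only. Without Gpx3 the other 9 genes held 0.299% to 0.395% of counts in bleomycin and 0.308% to 0.398% in saline lungs, and the groups overlapped.

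**Figure D3:**
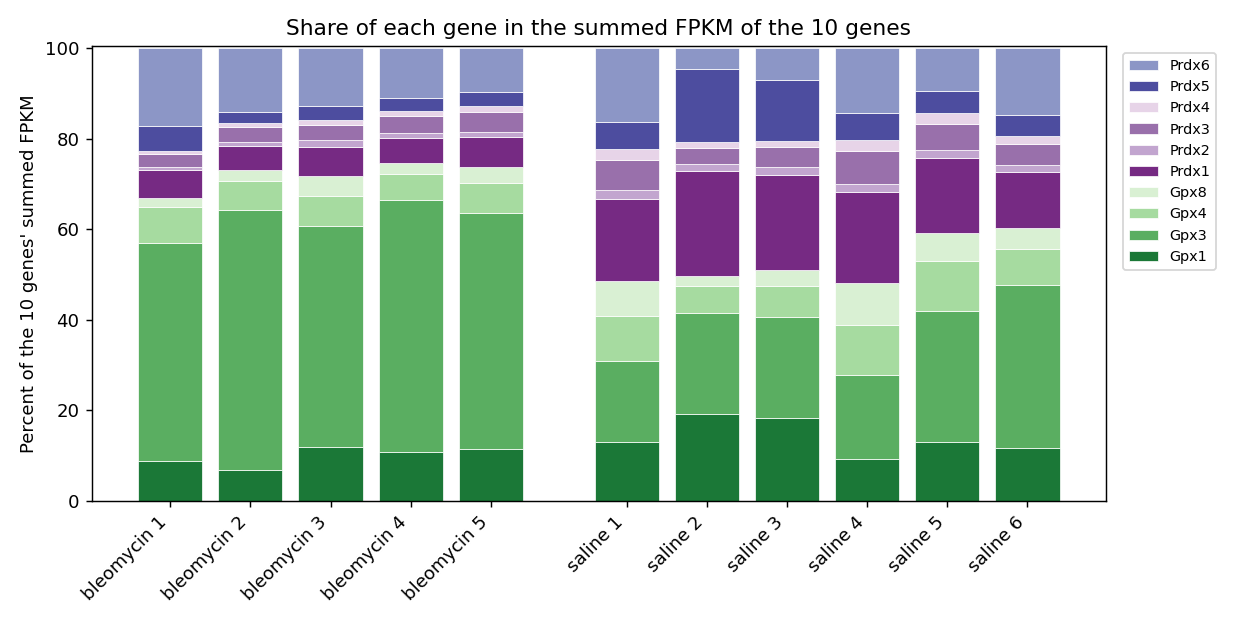
Share of each of the 10 genes in their summed FPKM (percent, stacked to 100) in each library, with 5 bleomycin libraries on the left and 6 saline libraries on the right. Gpx3 fills 48.2% to 57.4% of the bleomycin bars and 17.9% to 36.0% of the saline bars.

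Some markers of other cells also changed, and their part in the results was not tested. Beside the rise of Gpx3, 3 of 8 endothelial markers rose (summed CPM 2681 to 3647 in bleomycin and 946.7 to 3425 in saline lungs), as did 3 of 8 alveolar type 1 markers (4395 to 5915 in bleomycin and 1491 to 4973 in saline lungs). Of 8 fibroblast markers 2 rose (2571 to 4131 in bleomycin and 1778 to 5271 in saline lungs). As a list these did not move one way, with a median log2 fold change of -0.02 and 2 higher and 1 lower at an unadjusted p under 0.05. With single libraries left out, edgeR called 0 to 4 of the endothelial, 0 to 2 of the fibroblast and 2 to 3 of the alveolar type 1 markers. Without saline 1 and 4, a fit that called 876 genes in all, it called 0, 0 and 2. Beside the fall of Prdx1, 7 of 12 lymphocyte markers fell, 7 without saline 2 and 3 and 4 without bleomycin 2 (summed CPM 41.54 to 133.5 in bleomycin and 88.89 to 416.5 in saline lungs). So did 2 of 10 markers of recruited monocytes and macrophages (367.6 to 839.9 in bleomycin and 499.7 to 4005 in saline lungs). Alveolar macrophage markers did not move one way: 1 of 11 fell, Fabp4, with 2 higher and 3 lower at an unadjusted p under 0.05 (summed CPM 670.6 to 1495 in bleomycin and 524.9 to 1042 in saline lungs). With single libraries left out, 0 to 2 of them fell. None of the markers in these 6 lists was at 0 in any library. Of 6 cardiac markers 0 passed by edgeR, with 3 at an unadjusted p under 0.05 and 1 called by DESeq2 (212.4 to 312.0 in bleomycin and 93.82 to 842.1 CPM in saline lungs), and 5 fell without saline 2 and 3. Of 5 adipose markers 1 fell, Retn (3.996 to 10.76 in bleomycin and 5.931 to 91.3 CPM in saline lungs), with 0 to 3 falling when single libraries were left out and 5 without saline 2 and 3.

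By a distance between library profiles, the genes most like each of the 2 called members were sought among 4988 genes with a mean FPKM of 5 or more. The distance was the root mean square difference of log2 CPM, centred on each gene's mean over the 11 libraries. It includes the difference between the groups, so genes that changed alike come out near each other. Nearest to Gpx3 were Cdc42bpg (0.22), a kinase gene, Trim16 (0.242) and Nes (0.271), which encodes the intermediate filament protein nestin, against a median distance of 0.875. Nearest to Prdx1 were Ggh (0.23), the gamma-glutamyl hydrolase gene, Isoc1 (0.265) and Id2 (0.27), an inhibitor of DNA-binding transcription factors, against a median of 0.785. In the order named, log2 fold changes were 1.47, 1.57 and 1.37 for the genes near Gpx3. For those near Prdx1 they were -0.958, -0.938 and -1.09.

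The genes that serve these enzymes are given by list, each beside the 10.3% of all genes that were called. In the thioredoxin system, which reduces most peroxiredoxins, 0 of 10 genes rose and 1 fell. That gene was Txn1, cytosolic thioredoxin itself, at 239.3, 205.4, 159.6, 194.6 and 163.5 CPM in bleomycin 1 to 5 and 343.1, 486.9, 385.8, 314.5, 397.1 and 241.3 CPM in saline 1 to 6. Every bleomycin library lay below every saline library, though bleomycin 1 came close to saline 6. Its log2 fold change of -0.91 ± 0.19 passed (adjusted p = 0.0159 by edgeR). Txn1 passed in every fit that left out 1 library and lost its call on TPM (-0.38, adjusted p = 0.466). Of the genes of sulfiredoxin, which repairs over-oxidised peroxiredoxins, and of the sestrins, 1 of 4 rose. That was Sesn2, also a target of p53, at 42.68 to 73.69 CPM in bleomycin and 10.7 to 28.51 CPM in saline lungs (log2 fold change 1.55 ± 0.26, adjusted p = 0.00665). Srxn1, the sulfiredoxin gene, held 61.43 to 99.37 CPM in bleomycin and 34.43 to 73.68 CPM in saline lungs (log2 fold change 0.26, adjusted p = 0.397).

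Of 12 tested genes of glutathione synthesis, reduction and cystine supply, 3 rose and 1 fell. Gclc, the catalytic subunit of the enzyme that limits glutathione synthesis, held 319.4 to 539.3 CPM in bleomycin and 122.2 to 298.2 CPM in saline lungs (log2 fold change 1.02 ± 0.26, adjusted p = 0.032 by edgeR). The call did not survive leaving out saline 3, saline 5 or any single bleomycin library (adjusted p up to 0.0788), with log2 fold changes of 0.91 to 1.15 over single libraries left out. Chac1, which breaks glutathione down, was at 2.79 to 5.73 CPM in bleomycin and 0.680 to 1.68 CPM in saline lungs (1.63 ± 0.31, adjusted p = 0.0104), on counts as low as 10 reads. With single libraries left out, 1 to 3 of the 12 rose. On TPM and without saline 1 and 4, 2 of the 12 rose in each fit, and these were Gclc and Chac1. The third gene that rose with all libraries, Slc3a2, was not called in either of those fits and encodes the heavy chain of the cystine transporter. Its light chain, Slc7a11, went the other way, with 9.499, 4.00, 5.53, 6.20 and 6.51 CPM in bleomycin 1 to 5 and 21.6, 143.9, 85.4, 14.9, 13.3 and 6.12 CPM in saline 1 to 6. Saline 2 and 3 held by far the most, and saline 6 lay within the bleomycin range. The log2 fold change was -2.91 ± 0.77 (adjusted p = 0.0343), or -1.14 (adjusted p = 0.0395) with saline 2 and 3 left out. Leaving out only saline 2, only saline 3 or 1 of bleomycin 2 to 5 ended the call (adjusted p up to 0.0853), at -3.14 to -2.16 over single libraries left out.

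**Figure D4:**
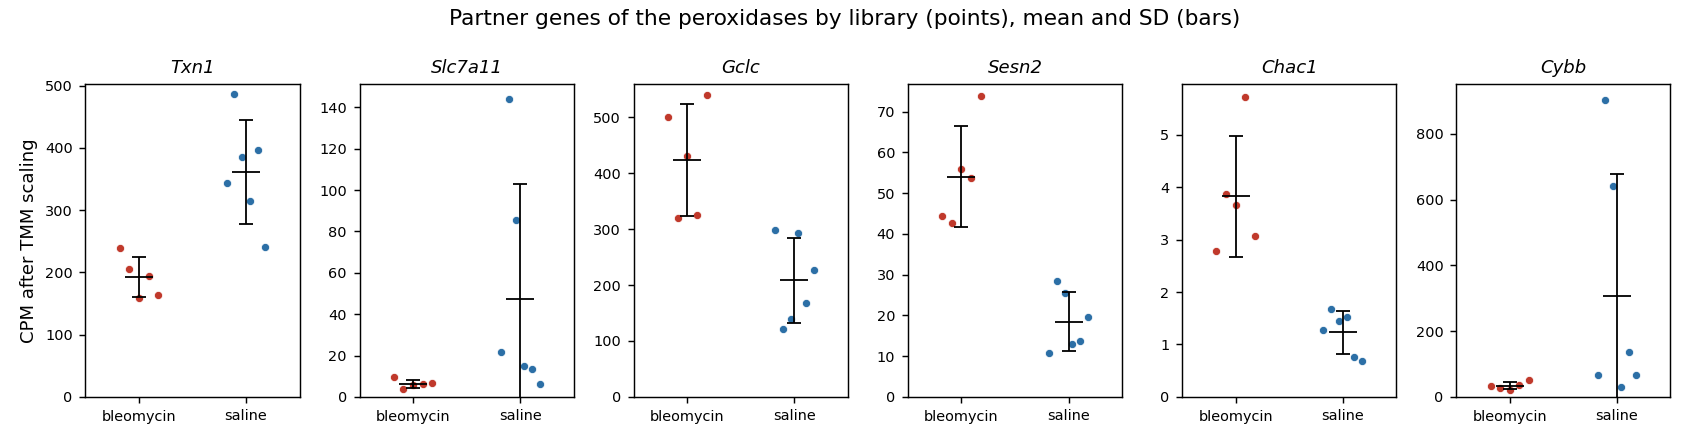
CPM after TMM scaling (vertical axes, from 0) of 6 genes that serve or feed the peroxidases, in 5 bleomycin and 6 saline libraries. Points are libraries and bars are the mean and SD, drawn down to 0 at most. Txn1, Gclc, Sesn2 and Chac1 show groups that do not overlap, while the saline means of Slc7a11 and Cybb are set by saline 2 and 3, at 143.9 and 85.4 CPM and at 904.2 and 642.5 CPM.

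Of 14 tested NADPH oxidase and other peroxide source genes, 0 rose and 2 fell. Cybb, the catalytic subunit of the phagocyte oxidase, held 21.4 to 50.4 CPM in bleomycin lungs. In saline lungs it held 904.2 and 642.5 CPM in saline 2 and 3 and 29.12 to 135.2 CPM in the other 4. Its log2 fold change of -3.18 ± 0.85 (adjusted p = 0.0369 by edgeR) came to -1.13 without saline 2 and 3 (adjusted p = 0.0523). Leaving out only saline 2, only saline 3 or any single bleomycin library also ended the call (adjusted p up to 0.0889), at -3.42 to -2.47 over single libraries left out. Ero1b, an oxidase of the endoplasmic reticulum whose by-product is hydrogen peroxide, held 30.29 to 43.58 CPM in bleomycin and 47.36 to 65.77 CPM in saline lungs (log2 fold change -0.60 ± 0.14, adjusted p = 0.0214). Leaving out bleomycin 2, 4 or 5 ended the call (adjusted p up to 0.0588, log2 fold changes -0.68 to -0.54 over single libraries left out), as did scaling to total counts (adjusted p = 0.0792). The call was also lost with the GC correction (-0.39, adjusted p = 0.139 by edgeR), with the replicate block and by limma on FPKM. On TPM Ero1b was at -0.097 (adjusted p = 0.833 by limma). It was the 1 of 10 genes of oxidative folding in that compartment that passed by edgeR. At an unadjusted p under 0.05, 1 of these 10 was higher and 3 were lower. DESeq2 called 3 lower, while scaling to total counts called 1 higher and 0 lower. The most abundant of each list did not pass: Cyba, a partner of Cybb, averaged 96.04 ± 26.2 CPM in bleomycin and 206 ± 180 CPM in saline lungs (log2 fold change -1.10, adjusted p = 0.179). Without saline 2 that was -0.60, and without saline 2 and 3 it was -0.000494. The disulfide isomerase gene P4hb averaged 640.0 ± 52.0 CPM in bleomycin and 692 ± 89.3 CPM in saline lungs (adjusted p = 0.644).

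By edgeR 0 of 5 superoxide dismutase and catalase genes passed, with 2 at an unadjusted p under 0.05 and 1 called by DESeq2. Of 4 glutaredoxin genes 0 passed by edgeR and 0 by DESeq2, with 1 at an unadjusted p under 0.05. Cat, the catalase gene, averaged 268 ± 93.5 CPM in bleomycin and 331 ± 174 CPM in saline lungs (adjusted p = 0.617), and Glrx3 averaged 75.7 ± 5.08 CPM in bleomycin and 102 ± 26.0 CPM in saline lungs (adjusted p = 0.118). Glrx3 passed without saline 2 and 3 (log2 fold change -0.57, adjusted p = 0.0353). Gpx1, Gpx3 and Gpx4 need the machinery of selenocysteine synthesis and insertion, of which 0 of 11 genes passed by edgeR and 0 by DESeq2, with 1 at an unadjusted p under 0.05. Selenop, the selenium transport protein gene, averaged 648 ± 32.8 CPM in bleomycin and 493.2 ± 211 CPM in saline lungs (log2 fold change 0.39, adjusted p = 0.316). It moved to 0.64 when saline 5 was left out (adjusted p = 0.0628) and to 0.16 when saline 2 and 3 were (adjusted p = 0.625). On TPM Selenop passed at 0.995 (adjusted p = 0.0379). Of 17 other selenoprotein genes, 1 rose, Selenoo, at 11.7 ± 1.47 CPM in bleomycin and 7.12 ± 1.24 CPM in saline lungs (log2 fold change 0.71, adjusted p = 0.0273). Leaving out saline 1 or 4, or bleomycin 2, 3 or 5, ended that call (adjusted p up to 0.0595), at 0.63 to 0.78 over single libraries left out. At an unadjusted p under 0.05, 1 of the 17 was higher and 3 were lower, and DESeq2 called 1 higher and 2 lower. EdgeR called 2 higher and 2 lower without saline 2 and 3, and 0 without saline 1 and 4. Selenow averaged 239 ± 64.6 CPM in bleomycin and 227 ± 36.1 CPM in saline lungs (adjusted p = 0.822).

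Of 15 genes of lipid peroxidation and ferroptosis, the process that Gpx4 restrains, 2 rose and 1 fell. Lpcat3, which puts polyunsaturated fatty acids into phospholipids, averaged 54.1 ± 7.56 CPM in bleomycin and 35.0 ± 4.93 CPM in saline lungs (log2 fold change 0.63, adjusted p = 0.0193 by edgeR). Alox5, the leukotriene-forming lipoxygenase gene, averaged 13.7 ± 6.50 CPM in bleomycin and 5.90 ± 1.46 CPM in saline lungs (1.22, adjusted p = 0.0292). Ptgs2, the inducible cyclooxygenase gene, averaged 30.3 ± 14.9 CPM in bleomycin and 90.3 ± 37.3 CPM in saline lungs (-1.58, adjusted p = 0.03). With single libraries left out the log2 fold changes stayed between 0.56 and 0.68 for Lpcat3, between 0.94 and 1.42 for Alox5 and between -1.81 and -1.38 for Ptgs2. The adjusted p passed 0.05 without bleomycin 4 or 5 for Lpcat3 (up to 0.0543), without bleomycin 2, 4 or 5 or saline 1 or 4 for Alox5 (up to 0.0684), and without bleomycin 1, 2, 4 or 5 or saline 1 or 4 for Ptgs2 (up to 0.072). Without both saline 1 and 4, 0 of the 15 passed, at log2 fold changes of 0.61, 1.21 and -1.39 for these 3 genes. Fth1, the ferritin heavy chain gene and the most abundant of the list, averaged 2413 ± 420 CPM in bleomycin and 4092 ± 3175 CPM in saline lungs (log2 fold change -0.76, adjusted p = 0.289), and its log2 fold change was 0.20 without saline 2 and 3.

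The 2 glutathione peroxidase genes of the table outside the 10 did not pass either. Gpx2, the epithelial form, held 49.5 to 133.5 CPM in bleomycin and 24.8 to 212.2 CPM in saline lungs (adjusted p = 0.614 by edgeR). Gpx7, of the endoplasmic reticulum, held 8.82 to 23.7 CPM in bleomycin and 11.98 to 24.7 CPM in saline lungs (adjusted p = 0.685). RefSeq lists pseudogenes or gene copies of Gpx2, Gpx4, Prdx1, Prdx2 and Prdx6, which had no row under their symbols in the deposited table and were not analysed here. Whether reads that fit both a gene and its copy were counted is not given in the sources used here, so the counts of these genes carry that uncertainty.

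**Figure D5:**
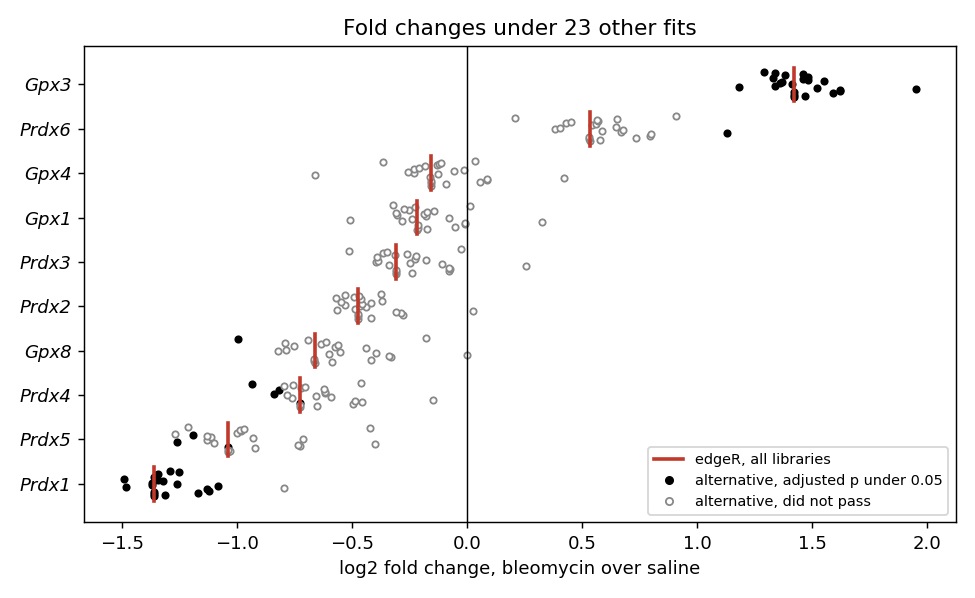
Log2 fold change of bleomycin over saline (horizontal axis) of each of the 10 genes (rows) under 23 other fits, which vary the filter, scaling, test and libraries. Red lines mark edgeR with all libraries, filled points passed an adjusted p of 0.05 and open points did not. All points of Gpx3 are filled, between 1.18 and 1.95, as are those of Prdx1 except the fit on TPM at -0.79.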

How the data were processed

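Polyadenylated RNA from lung was sequenced in pairs, with dUTP added during second-strand synthesis, per the labels' protocols. The authors deposited 1 table. Its count columns hold unnormalized whole numbers as deposited, and the FPKM columns hold the authors' values, scaled to gene length and library size. The submitters' processing notes name FastQC, HISAT2 2.2.1, HTSeq 2.0.2 and the build GRCm39. Neither the annotation nor how strand was handled in counting is given in the sources used here.

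Counts were tested with edgeR 4.0.16 in R 4.3.3, after filterByExpr (count minimum 10) and TMM scaling, for 5 bleomycin against 6 saline libraries grouped by title. The quasi-likelihood test was two-sided, and p-values were adjusted over all 14478 genes by Benjamini-Hochberg. It was run on simulated data with planted changes, drawn as independent libraries without the likeness between saline libraries described above. That run therefore does not speak of error rates in these data. The SE is the absolute log2 fold change over the square root of F. Alternatives used DESeq2 1.42.0 and limma 3.58.1 on log2(FPKM + 1), log2(FPKM + 0.1) and log2(TPM + 1), other filters and factors, a replicate block, GC correction (loess per library on the longest GENCODE transcript) and left-out libraries. The genes named are the 10 members, and from each pathway list the 3 largest changes past the threshold and the gene of highest mean FPKM. Slc3a2, Fabp4, Retn, Sftpb and Abca3 were named after their values were seen. The members, lists and left-out libraries were chosen with earlier results of these data known. Each library was counted as 1 sample. The closest pairs, saline 1 and 4 and saline 2 and 3, differed beyond counting noise (chi-square per degree of freedom 17.7 and 26), against 109 to 468 for the other saline pairs, which does not show whether they are separate animals.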

Additional observations from a re-analysis of the deposited data

Results flagged for a closer look

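Of the 20 groups of values checked (10 genes in 2 groups each), 1 held a library far from the rest, about as many as chance gives at 1 in 20. Prdx5 was at 310.0 CPM in bleomycin 1, against 155.5 to 171.8 CPM in the other 4 bleomycin libraries. Without bleomycin 1 the log2 fold change of Prdx5 was -1.27 (adjusted p = 0.0556 by edgeR).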

How the results depend on the processing

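Over 24 alternatives, Gpx3 kept its direction and its side of the threshold in every one, and Prdx1 in all but limma on TPM. The number of genes called, 1496 with edgeR, was 732 with a minimum of 5 FPKM, 2864 by DESeq2, 976 with a GC correction, 2778 without saline 2 and 3, 876 without saline 1 and 4, 247 at an adjusted p of 0.01, and 557 to 2118 with single libraries left out. Of the genes called, 44.9% were higher with edgeR, 70.2% with total-count scaling, 74.7% on FPKM with a pseudocount of 1, 72.3% with 0.1, 92.6% on TPM, 32.6% without saline 1 and 4 and 56.7% without bleomycin 3. The members called, 2 with edgeR, were 4 by DESeq2, 4 without saline 2 and 3 and 2 to 4 with single libraries left out. Replicate numbers did not pair the samples: same-numbered deviations correlated at -0.189 to 0.0139. With a replicate block, 513 genes and 2 members passed, Gpx3 at 1.52 (adjusted p = 0.0367) and Prdx1 at -1.48 (adjusted p = 0.0248).

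The log2 fold changes that changed sign were those of genes that did not pass. On TPM they were Gpx1 0.328, Gpx4 0.421, Prdx2 0.0256, Prdx3 0.258, Cat 0.351, Fth1 0.0633, Glrx3 0.112, Gpx2 0.414, Gpx7 0.292 and P4hb 0.403. On FPKM with a pseudocount of 1 they were Gpx4 0.0851, Cat 0.0141, Gpx2 0.0645 and P4hb 0.0679, and with 0.1 they were Gpx4 0.0865, Cat 0.0161, Gpx2 0.0847 and P4hb 0.0682. Scaling to total counts gave Gpx4 0.0547 and P4hb 0.0782. Leaving out saline 2 and 3 gave Gpx1 0.0119, Fth1 0.202 and Gpx7 0.0834, and leaving out saline 1 and 4 gave Gpx4 0.0356, Cat 0.222 and Gpx2 0.535. Selenow was -0.241 with the GC correction and -0.0669 to 0.167 with single libraries left out. The cause was not tested. The members held at least 311 reads in each library.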
